A study of Rattus norvegicus with 10 samples.

Results

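The genes described here are 9 markers of the endothelial cells that line brain capillaries, taken by name: *Cldn5*, *Pecam1*, *Flt1*, *Kdr*, *Tek*, *Tie1*, *Esam*, *Slco1a4* and *Abcb1a*. A gene counted as a member when its symbol matched a name in the authors' deposited table of 12828 genes, and 8 of the 9 matched. *Pecam1* was not analysed here. RNA came from the arcuate nucleus (ARC) of the hypothalamus of 10 Wistar dams, collected upon parturition. During pregnancy, 5 dams ate a 5X-FA diet, with folic acid at 5 times the recommended level, and 5 ate a 5X-MTHF diet, with the same molar dose of the reduced folate methyltetrahydrofolate. The age of the dams was not given in the sources used here, and the ARC was cut out free hand, so a sample may hold tissue from around the nucleus.

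Brain endothelial cells form the blood-brain barrier. Tight junctions seal the gaps between neighbouring cells, and transporters in the cell membranes then decide which molecules enter or leave the tissue. Receptors for vascular endothelial growth factor (VEGF) and for angiopoietins keep the vessels alive and stable. Such cells are a small part of hypothalamic tissue, next to neurons and astrocytes.

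The study asked whether the 2 forms of folate led to different gene expression in the ARC. That comparison could not be made for the endothelial genes. The 10 columns of values per library carry only the numbers 1 to 10 as names, which match no dam and no diet, and they were used in no step. The authors' own fold changes and *p*-values were not used either. What remains is 1 value per gene, the authors' average log2 CPM over all libraries, in which both diets are mixed. CPM is the read count of a gene scaled to the reads counted in its library. The values below therefore have no error, no n and no test, and they neither show nor exclude a difference between diets. Depth per library is unknown from the column used, so no counting interval is given. In bulk tissue, fewer endothelial cells and less RNA per cell cannot be told apart.

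CPM is not divided by transcript length, and a long transcript yields more reads than a short one at the same number of molecules. The values were therefore read as how many reads stand behind each gene, not as an order of RNA levels. For each gene its percentile is the share of all 12828 genes with a lower average. The 8 genes lay between 3.80 and 6.28 in average log2 CPM, and their median was 5.31, against 4.94 over all genes. Of the 8, 4 lay above the median of all genes and 4 lay below it. The split changed when CPM was divided by the whole gene span, introns included, which is not transcript length. Only *Cldn5* then stayed above the median, at percentile 97.0, and the other 7 lay below it. Of these, *Flt1* was at 22.7, *Abcb1a* at 12.8 and *Slco1a4* at 47.3. On the linear scale the 8 genes summed to 363 CPM, or 0.0362% of the sum over the table.

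**Figure D1:**
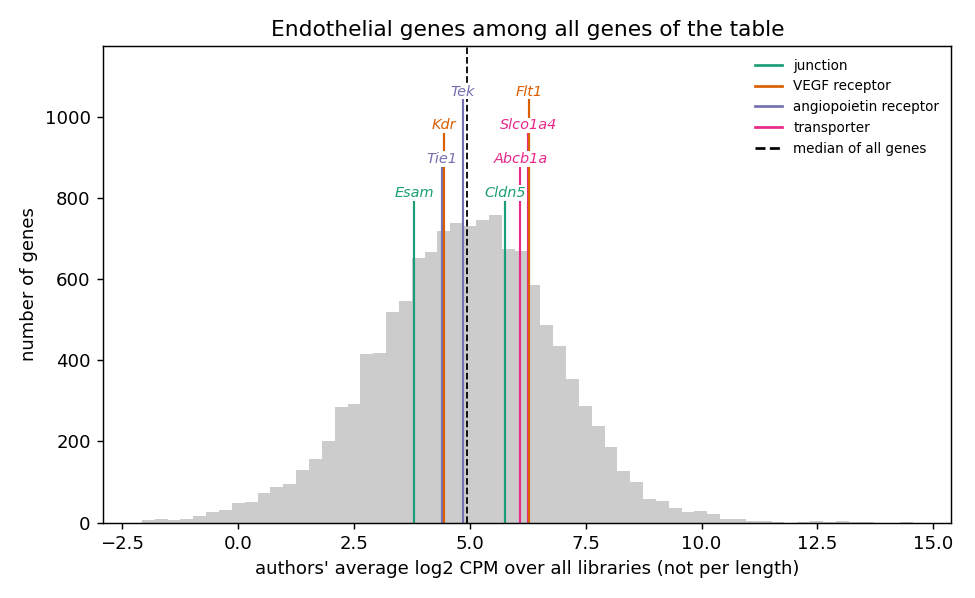
Histogram of the authors' average log2 CPM over all libraries (x axis) for 12828 genes (y axis, number of genes), with coloured lines for the 8 endothelial genes by role and a dashed line at the median of all genes, 4.94. *Esam*, *Tie1*, *Kdr* and *Tek* lie left of the dashed line, and *Cldn5*, *Abcb1a*, *Slco1a4* and *Flt1* lie right of it; heights of the coloured lines carry no value.

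Of the junction genes, *Cldn5* encodes claudin 5, the main claudin of the tight junctions of brain endothelium. *Cldn5* (ENSRNOG00000045811) lies on chromosome 11 of Rnor_6.0 from 86356294 to 86357718, a span of 1.43 kb. Its average log2 CPM was 5.77, or 54.4 CPM, at percentile 67.0 of all genes. *Esam* (ENSRNOG00000033217) encodes an adhesion molecule of endothelial junctions and lies on chromosome 8 from 39997875 to 40008809. Its average log2 CPM was 3.80, or 13.9 CPM, at percentile 27.5, the fewest reads of the 8 genes. How far read number limits the precision of the *Esam* value was not tested.

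*Flt1* and *Kdr* encode VEGF receptors 1 and 2. The first binds VEGF tightly but signals weakly, and the second carries most of the signal in endothelial cells. *Flt1* (ENSRNOG00000000940), on chromosome 12 from 9034308 to 9205905, had an average log2 CPM of 6.28, or 78.0 CPM, at percentile 76.8. *Kdr* (ENSRNOG00000046829), on chromosome 14 from 34727623 to 34787183, had an average log2 CPM of 4.45, or 21.9 CPM, at percentile 39.6. Both receptors were thus counted in these libraries. These averages are not divided by transcript length, so they do not show which receptor was more abundant.

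*Tek* encodes Tie2, the receptor of the angiopoietins, and *Tie1* encodes its partner, which modulates that receptor. Both lie on chromosome 5, *Tek* (ENSRNOG00000008587) from 113725717 to 113852799 and *Tie1* (ENSRNOG00000020173) from 137294544 to 137321121. *Tek* had an average log2 CPM of 4.85, or 28.8 CPM, at percentile 47.9. *Tie1* had an average log2 CPM of 4.39, or 21.0 CPM, at percentile 38.5. Both stood below the median of all genes in reads.

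*Slco1a4* encodes an organic anion transporter of the endothelial membrane, and *Abcb1a* encodes P-glycoprotein, the pump that returns many drugs to the blood. Both lie on chromosome 4. *Slco1a4* (ENSRNOG00000047493), from 175969549 to 176026163, had an average log2 CPM of 6.27, or 77.0 CPM, at percentile 76.5. *Abcb1a* (ENSRNOG00000008012), from 22133521 to 22425515, had an average log2 CPM of 6.09, or 68.3 CPM, at percentile 73.5. The transporters together gave 145 CPM, the VEGF receptors 99.8, the junction genes 68.3 and the angiopoietin receptors 49.8, as sums of reads that are not adjusted for length.

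All 8 genes are annotated as protein-coding, and 0 of them overlap another gene of the table. They lie on 6 chromosomes. The transporter genes have close relatives beside them. By RefSeq gene order on GRCr8, *Abcb4* and *Abcb1b*, which encode related pumps, lie between *Crot* and *Abcb1a*. In the deposited table the nearest genes are *Crot*, 17.3 kb before *Abcb1a*, and *Rundc3b*, 19.9 kb after it, and the *Abcb1a* span itself is 292 kb. Neither *Abcb4* nor *Abcb1b* was matched in the table, so its *Abcb1a* value is uncertain, and whether it holds reads of these relatives was not tested. *Slco1a4* differs, with a span of 56.6 kb and the next listed gene after it, *Pyroxd1*, 540 kb away. Whether the *Slco1a4* value holds reads of relatives was not tested either. Of 6 related *Slco1* genes in RefSeq, 1 was matched, *Slco1c1*, which encodes a thyroid hormone transporter of brain endothelium and lies 193 kb before *Slco1a4*, with an average log2 CPM of 6.46.

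The VEGF receptors also lie beside related receptor tyrosine kinase genes. *Kit* follows *Kdr* in the table at a distance of 285 kb, with an average log2 CPM of 5.49. *Pdgfra*, the next gene in RefSeq order and a marker of oligodendrocyte precursors and fibroblasts, had an average log2 CPM of 7.01. *Flt3*, which follows *Flt1* and *Pan3* in RefSeq order, had an average log2 CPM of 3.85. *Esam* has the closest neighbours among genes listed in the deposited table. *Msantd2* lies 4.25 kb before it and *Nrgn*, the neuronal gene neurogranin, 6.24 kb after it. In RefSeq order *Vsig2* lies between *Esam* and *Nrgn*. *Nrgn* had an average log2 CPM of 7.48.

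Start regions were read from RefSeq on GRCr8 for 6 of the 9 genes, and the 250 bases before each annotated start were searched on both strands. These sequences describe the genes. Without values per dam, no expression result could be tied to them. The start regions of *Cldn5* and *Slco1a4* are printed, the first for the main claudin of the barrier and the second as the region with the lowest GC content of the 6 and no GC box. *Cldn5* is at chr11:95718599-95718848 and *Slco1a4* is at chr4:176495847-176496096 of GRCr8, both on the minus strand and both written 5′ to 3′ along the gene. Capitals mark matches on either strand to GGAAG, the core of sites for ETS factors with a flanking base. ETS factors include regulators of endothelial genes, and a core with another flanking base is not marked. Also in capitals are matches on either strand to the GC box GGGCGG, the CCAAT box CCAAT and the TATA box TATAAA.
Cldn5: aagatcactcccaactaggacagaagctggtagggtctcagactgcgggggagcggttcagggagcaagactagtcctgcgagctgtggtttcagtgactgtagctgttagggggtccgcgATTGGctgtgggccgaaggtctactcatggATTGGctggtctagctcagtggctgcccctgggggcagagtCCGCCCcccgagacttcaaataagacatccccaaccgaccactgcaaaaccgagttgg
Slco1a4: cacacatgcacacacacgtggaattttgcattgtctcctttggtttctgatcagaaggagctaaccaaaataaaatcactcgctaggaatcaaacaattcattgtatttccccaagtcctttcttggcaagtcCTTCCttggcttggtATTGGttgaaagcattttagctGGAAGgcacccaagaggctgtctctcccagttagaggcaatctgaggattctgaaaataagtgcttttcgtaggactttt

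The *Cldn5* region had a GC content of 58.4% and 10 CG dinucleotides, and the *Slco1a4* region had 42.4% and 3. Over all 33469 start regions the medians were 51.2% and 5. The other 4 regions had GC contents of 73.2% for *Flt1*, 61.6% for both *Kdr* and *Tie1*, and 54.0% for *Abcb1a*. A GC box was found in 5 of the 6 regions, all but that of *Slco1a4*, and in 30.5% of all regions. GGAAG was found in 4 of 6, those of *Flt1*, *Kdr*, *Tie1* and *Slco1a4*, and in 63.3% of all. A CCAAT box was found in 3 of 6 and in 34.0% of all. TATAAA was found in 1 of 6, that of *Flt1*, at 75 to 70 bases before its start, and in 12.9% of all. Of these regions, *Cldn5* had 2 CCAAT boxes on the strand opposite to the gene, starting 129 and 99 bases before its start. *Flt1* and *Tie1* had 3 matches each to GGAAG. A match is a run of letters and not evidence of binding.

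**Figure D2:**
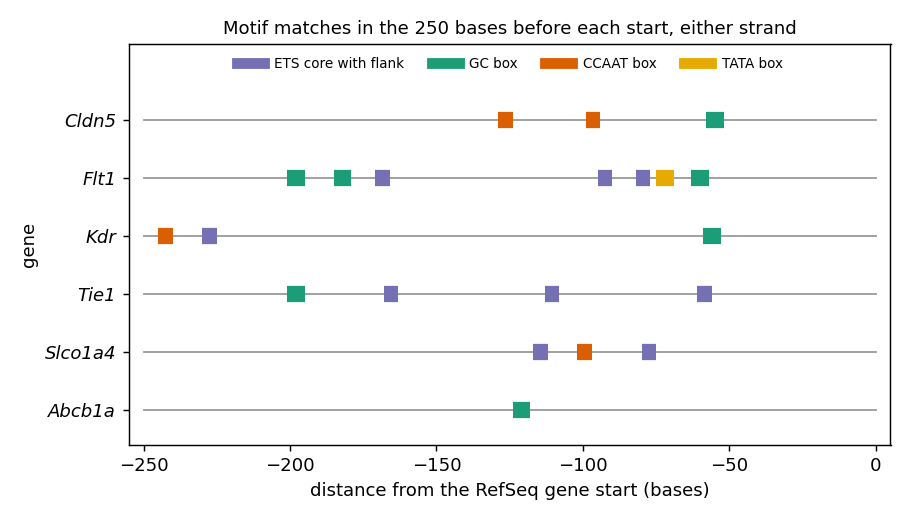
Matches to the 4 motifs (colours) on either strand of the 250 bases before the RefSeq start of 6 endothelial genes (y axis), by distance from the start in bases (x axis). A GC box is drawn in all regions but that of *Slco1a4*, and *Flt1* and *Tie1* have 3 matches each to GGAAG, the ETS core with flank.

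Other genes of the vessel wall were read from hand-written lists, on the same scale. Of 8 further junction genes, 7 were found, with average log2 CPM between 3.38 and 7.63 and a median of 4.30. Among them were *Tjp1* (7.63) and *Jam2* (6.77), which encode a junction scaffold and an adhesion protein that other cells also make. Of 14 further endothelial identity genes, 13 were found, from 2.24 to 5.87 with a median of 3.50. They were led by *Vwf* (5.87), which encodes von Willebrand factor, *Mcam* (5.42), an adhesion molecule, and *Ptprb* (5.06), the phosphatase that acts on Tie2. Of 12 further transport genes, all 12 were found, at up to 9.64 with a median of 6.30. *Lrp1* (9.64), *Slc3a2* (7.08) and *Tfrc* (7.04), which had the most reads, are expressed by many cell types besides endothelium.

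Among ligands and co-receptors of these pathways, 7 of 11 genes were found, with a median average log2 CPM of 5.32. *Vegfa*, the main VEGF ligand, stood at 7.08, and the co-receptor genes *Nrp2* and *Nrp1* at 6.17 and 5.68. Of 14 genes of the Wnt signal that maintains the barrier, 12 were found, with a median of 4.75. *Ctnnb1*, which encodes beta-catenin and is used by every cell, stood at 8.31, *Tspan12* at 6.08 and *Lrp6* at 5.69. The genes *Angpt1* and *Angpt2*, which encode ligands of Tie2, had averages of 3.01 and 2.50 and were picked here with their values in view.

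Genes that mark other cells of the vessel wall and of the brain were also counted. Of 12 pericyte and smooth muscle genes, 10 were found, summing to 259 CPM and led by *Rgs5* (5.35 on the log2 CPM scale), *Myh11* (5.30) and *Cspg4* (5.09). The list median was 4.67, and only these 3 of the 10 lay above the median of all genes, with *Kcnj8* lowest at 2.26. Of 9 fibroblast genes, 8 were found, summing to 330.2 CPM, of which *Pdgfra*, which oligodendrocyte precursors also express, gave 129 CPM. *Col3a1* (5.73) and *Col1a1* (5.54) followed. The fibroblast list ran from 3.23 to 7.01 with a median of 4.82, and only these 3 of its 8 genes lay above the median of all genes. Blood cell genes summed to 521 CPM over 3 of 4 genes, of which *Hbb*, a globin gene, gave 497 CPM, *Alas2* 15.8 CPM and *Ptprc*, the pan-leukocyte gene, 8.46 CPM. Whether blood in the vessels moved with the endothelial genes was not looked at, since the values per library were used in no step.

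Microglia and macrophage genes summed to 196 CPM over 6 of 7, led by *Csf1r* (6.82), *Cx3cr1* (4.46) and *P2ry12* (4.18). Choroid plexus genes summed to 17.2 CPM over 3 of 5, with *Ttr* at 3.06, *Clic6* at 2.82 and *Folr1* at 0.83. All 7 astrocyte genes were found, summing to 3679 CPM, with *Aqp4* at 10.22, *Slc1a3* at 9.73 and *Gfap* at 9.62. All 5 neuronal genes were found, summing to 5191 CPM, with *Map2* at 11.20, *Snap25* at 10.44 and *Syt1* at 9.96. Of 7 arcuate neuron genes, 6 were found, with *Cartpt* at 6.02, *Pomc* at 4.67 and *Tac3* at 4.34. *Agrp* stood at 1.42, percentile 4.1 of all genes, *Ghrh* at 1.02, percentile 2.9, and *Kiss1* at 0.08, percentile 1.1. *Npy* was not analysed here. The median of the list was 2.88, with 1 of the 6 genes above the median of all genes. No list of a neighbouring region was set beside it, and how much of the tissue was arcuate was not tested.

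**Figure D3:**
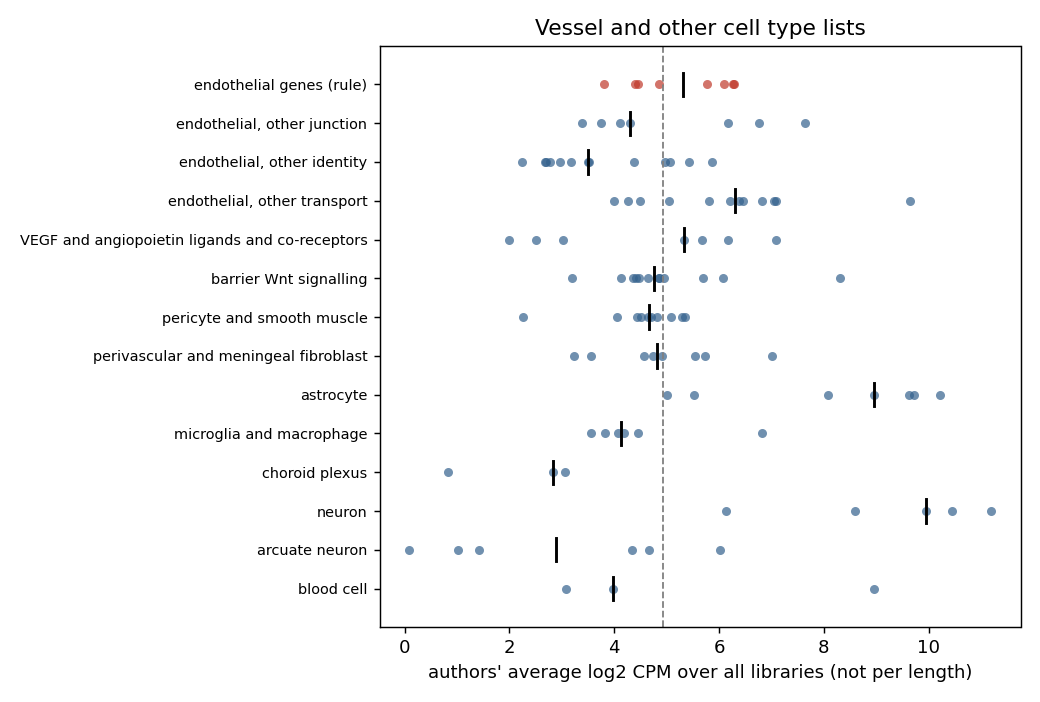
Authors' average log2 CPM over all libraries (x axis) for each gene found (points) of the 8 endothelial genes (red) and of 13 marker lists (blue, y axis). Black bars are the median of each list and the dashed line is the median of all genes, 4.94; the endothelial genes have a median of 5.31, the neuron list 9.96 and the choroid plexus list 2.82.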

How the data were processed

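Poly-A selected RNA from the ARC of 10 dams was sequenced by the authors, trimmed with Trim Galore 0.5.0, aligned with STAR 2.6.0c to Rnor_6.0 with Ensembl gene models and counted with HTSeq 0.6.1p2, per the labels and the methods. The authors deposited 1 table, from which the average log2 CPM over all libraries was used, and the tool that made that column is not given in the sources used here. Read as powers of 2, its values sum to 1002152 over the 12828 genes, near the total that CPM is scaled to, so the log base was taken as 2. Not used were 10 per-sample columns that match no label, and 4 columns of the authors' own comparison (log2 fold change, F, *p*-value and FDR). The tests planned on values per dam were therefore not run, and no genes of like pattern were sought.

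Genes were matched by symbol, with 22 repeated symbols in the table, and percentiles were taken over all genes. The members, 13 lists and rule (all members, and the 3 genes of each list with the highest average) were chosen with earlier results of these data known. The value of 1 gene that this rule selects is not reported here. RefSeq sequences were of GRCr8, so only coordinates marked GRCr8 are on that build. The rank and motif functions were tested on simulated data. Python 3.11.15, numpy 2.4.6, pandas 2.3.3 and matplotlib 3.10.9 were used.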

Additional observations from a re-analysis of the deposited data

How the results depend on the processing

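The median percentile of the 8 endothelial genes by average log2 CPM was 57.4 among all genes. It was 56.3 among the 12383 protein-coding genes and 56.2 among the 12462 genes whose average was 1 or more on the log2 CPM scale. With CPM divided by the whole gene span it was 28.4, with *Tek* lowest at 12.5 and *Cldn5*, the shortest gene, highest at 97.0. The span counts introns, so this is not a level per transcript length. No paired analysis was possible because the values per library carry no dam, diet or replicate name. For the same reason the alternatives of test, low-value filter in the test, pseudocount and left-out dam were not run.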
